A study of Mustela putorius furo with 9 samples.

Results

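Genes of the Hippo pathway were followed across cultured epithelial cells labelled as untreated or as exposed to particulate matter. They were YAP1, WWTR1, TEAD1, TEAD2, TEAD3, TEAD4, LATS1, LATS2, STK3 and SAV1, taken by gene symbol, and they make up 10 of the 28494 genes in the deposited expression table. All 10 had a level high enough to be tested, with 11840 genes tested in all. The cells are a line named NBL-7, labelled as ferret epithelium (a mink lung line also carries that name, and the species was not tested). RNA was sequenced from 9 libraries in 3 groups of 3. The group titled Ep1 is labelled untreated, and the group titled Ep2 is labelled as exposed to particulate matter at 250 µg/mL. The third group is titled PBS1, yet its treatment label gives particulate matter at 500 µg/mL, and the labels do not settle which holds. It is called the PBS-titled group here, and no order of dose is read from it. Exposure time is not given in the sources used here. Separate cultures behind the 3 libraries of a group are not stated in the labels. The p-values therefore reflect variation among libraries alone, and that variation may be technical.

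The Hippo pathway restrains tissue growth through a chain of kinases. STK3 and its paralogue STK4, with the scaffold SAV1, activate the kinases LATS1 and LATS2, which phosphorylate the coactivators YAP1 and WWTR1 (also called TAZ) and so keep them out of the nucleus. Unphosphorylated YAP1 and WWTR1 enter the nucleus, bind the TEAD transcription factors and switch on target genes such as CYR61 and CTGF, and in lung the pathway is known for its part in epithelial growth and repair. The pathway is governed mostly by phosphorylation and location of its proteins, which RNA levels do not measure.

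The libraries held between 12469849 and 13533480 fragments, and the members drew between 79 (TEAD3) and 2689 (TEAD1) fragments in a library. Levels are in FPKM, a fragment count corrected for the length of the gene and for library depth, so they can be set side by side between genes. The median tested gene had a mean of 12.0 FPKM. Of 12 epithelial markers, KRT7, KRT8, KRT19 and NKX2-1 were expressed, while EPCAM and SFTPC were listed at 0 in every library and CDH1 did not pass 0.135 FPKM. KRT18, CLDN4, CLDN7, SFTPB and SCGB1A1 did not pass the filter for testing either. Defining genes of fibroblasts (DCN, LUM), leukocytes (LAPTM5, CD14) and endothelium (CDH5) were also listed at 0 in every library, but other genes of those lists were not. TEK and FLT1 brought the summed endothelial list to between 28.5 and 34.4 FPKM. PDGFRA (0.669 to 2.05 FPKM) and COL1A2 passed the filter among the fibroblast markers, whose sum was 2.06 to 3.73 FPKM in the PBS-titled group, 2.83 to 3.67 in Ep1 and 2.51 to 3.27 in Ep2. TYROBP (0.905 to 2.01 FPKM) passed among the leukocyte markers, with CD68 at 0.26 to 0.925, and their sum was 1.52 to 2.17, 1.75 to 2.75 and 1.46 to 2.77 FPKM in that order of groups. The summed epithelial markers ranged from 1370 to 1600 FPKM in the PBS-titled group, from 1152 to 1534 in Ep1 and from 1073 to 1245 in Ep2. KRT7, at 764 to 1126 FPKM, made up most of each sum and was called in no comparison. Of the 4 tested epithelial markers, 3 were higher in the PBS-titled group than in Ep2, as were 25.4% of all tested genes. The 3 markers were KRT19 (log2 difference 0.64), NKX2-1 (0.63) and KRT8 (0.36). In Ep2, 2 of the 4 were lower than in Ep1, as were 14.0% of all tested genes. The 2 markers were NKX2-1 (-0.58) and KRT8 (-0.37), and the KRT8 call was lost without Ep2_3. Among endothelial markers, TEK was higher in Ep2 than in Ep1 (log2 difference 0.26), a call lost without Ep1_1, Ep1_3, Ep2_2 or Ep2_3. FLT1 was lower in the PBS-titled group than in Ep2 (-0.36). No fibroblast or leukocyte marker was called. Their part in the results below was not tested, and in bulk RNA fewer cells of a type and less RNA per cell cannot be told apart. The library Ep1_1 stood apart from Ep1_2 and Ep1_3: the number of genes that differed between the PBS-titled group and Ep1 was 17 with it and 1887 without it. By chi-square per degree of freedom on fragments, it lay 8.19 and 10.9 from them, against 4.01 between those 2. Ep2_1 also stood apart, at 7.02 from Ep2_2 and 5.96 from Ep2_3, against 3.08 between those 2.

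Of the 10 genes, 5 differed among the 3 groups by limma's F-test (adjusted p under 0.05), where 45.4% of all tested genes did. These were STK3 (adjusted p = 0.00114), TEAD2 (0.00138), LATS1 (0.00626), TEAD4 (0.0133) and SAV1 (0.0172). The kinases STK3 and LATS1 and the scaffold SAV1 were highest in Ep2, and the transcription factors TEAD2 and TEAD4 were highest in the PBS-titled group. The coactivator YAP1 lay at the other end, with an F-test adjusted p of 0.931. The remaining genes had adjusted p-values of 0.0644 for TEAD1, 0.0825 for WWTR1, 0.284 for LATS2 and 0.451 for TEAD3.

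**Figure D1:**
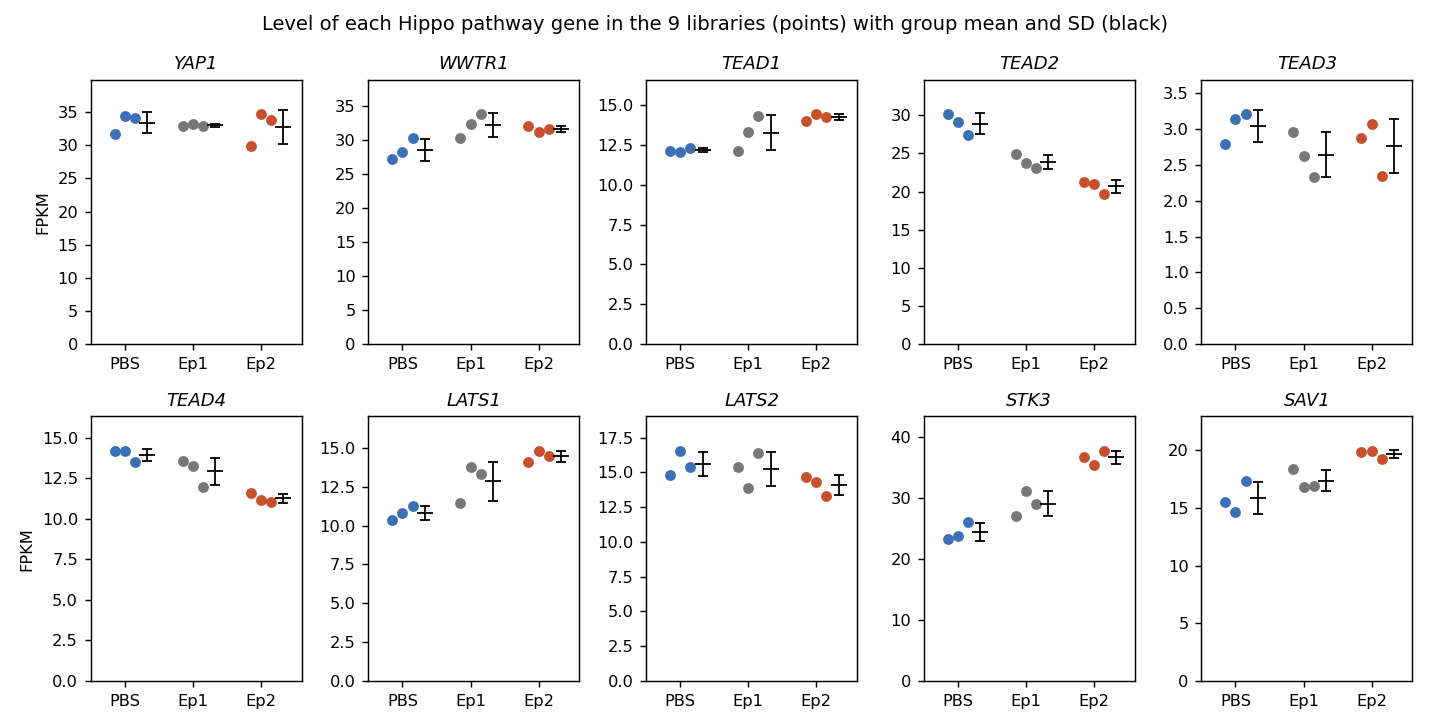
Level in FPKM of each Hippo pathway gene in the 9 libraries, by group; points are libraries, black marks the group mean and SD, and each axis starts at 0. STK3 runs from 23.2 FPKM in a PBS-titled library to 37.7 in an Ep2 library, TEAD2 falls the other way from 30.1 to 19.7, and the YAP1 libraries of the 3 groups overlap.

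STK3 (MST2), the kinase at the head of the cascade, had the largest difference among the 10 genes in each comparison with Ep2. It was at 23.2, 23.8 and 26.0 FPKM in the PBS-titled columns PBS1, PBS2 and PBS3, at 27.0, 31.0 and 29.0 in Ep1_1, Ep1_2 and Ep1_3, and at 36.7, 35.4 and 37.7 in Ep2_1, Ep2_2 and Ep2_3. No library of one group reached into the range of another. The means were 24.3 ± 1.47 FPKM in the PBS-titled group, 29.0 ± 2.0 in Ep1 and 36.6 ± 1.13 in Ep2 (SD, n = 3 each). STK3 was 1.25-fold higher in Ep2 than in Ep1, a difference of 0.33 in log2(FPKM + 1) (SE 0.07, limma adjusted p = 0.00869). It was 1.49-fold higher in Ep2 than in the PBS-titled group, whose difference from Ep2 was -0.57 (SE 0.07, adjusted p = 0.00037). Between the PBS-titled group and Ep1 the difference of -0.24 (SE 0.07) did not pass the threshold (adjusted p = 0.105), and TEAD2 had a larger one (0.26). The STK3 call in Ep2 against Ep1 was kept with any 1 library left out, with adjusted p between 0.0111 and 0.0427.

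The paralogue STK4 (MST1) was called in no comparison; it is named here after its values were seen. STK4 averaged 12.6 ± 0.715 FPKM in the PBS-titled group, 12.3 ± 0.425 in Ep1 and 12.3 ± 1.29 in Ep2, with an Ep2 minus Ep1 difference of -0.00 (SE 0.08, 95% interval -0.18 to 0.17). The STK3 to STK4 ratio of FPKM averaged 1.93 in the PBS-titled group (1.72 to 2.13), 2.37 in Ep1 (2.12 to 2.59) and 3.0 in Ep2 (2.74 to 3.40). The PBS-titled group and Ep1 overlapped in that ratio, and the highest value was that of Ep2_1, where STK4 was lowest. Whether the difference of STK3 itself differs from that of STK4 was not tested.

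SAV1, the scaffold that holds STK3 and STK4 to LATS, ran in the same direction as STK3 with smaller differences. Its levels were 15.5, 14.7 and 17.4 FPKM in the PBS-titled columns, 18.4, 16.8 and 16.9 in Ep1 and 19.8, 19.96 and 19.3 in Ep2. The Ep2 libraries lay above all 6 others, while those of the PBS-titled group and Ep1 overlapped. SAV1 was 1.23-fold lower in the PBS-titled group than in Ep2 (log2 difference -0.30, SE 0.07, limma adjusted p = 0.00599). Its difference of 0.17 between Ep2 and Ep1 did not pass the threshold (adjusted p = 0.0945).

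LATS1, which phosphorylates YAP1 and WWTR1, was also highest in Ep2, and its paralogue LATS2 passed in no comparison. LATS1 was at 10.4, 10.8 and 11.2 FPKM in the PBS-titled columns, 11.4, 13.8 and 13.3 in Ep1, and 14.1, 14.8 and 14.5 in Ep2, so the 3 groups did not overlap and Ep1_1 was the Ep1 library nearest to the PBS-titled group. It was lower in the PBS-titled group than in Ep2 (log2 difference -0.39, SE 0.08, adjusted p = 0.00212, 1.31-fold). Its difference of 0.16 (SE 0.08) between Ep2 and Ep1 was not called (adjusted p = 0.126). LATS2, itself a target gene of YAP1, was at 14.8, 16.5 and 15.4 FPKM in the PBS-titled columns, 15.4, 13.9 and 16.4 in Ep1, and 14.6, 14.3 and 13.3 in Ep2. The largest LATS2 difference, PBS-titled minus Ep2, was 0.14 with a 95% interval of -0.03 to 0.30 (adjusted p = 0.153). The ratio of LATS1 to LATS2 averaged 0.695 in the PBS-titled group (range 0.654 to 0.731), 0.849 in Ep1 (0.742 to 0.992) and 1.03 in Ep2 (0.965 to 1.09). The PBS-titled libraries lay below all others in that ratio, and Ep1 and Ep2 overlapped. The LATS1 and LATS2 levels summed to 26.4, 28.1 and 28.6 FPKM in the same order of groups.

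YAP1, the coactivator on which the cascade acts, was among the higher members and differed little between groups. It was at 31.6, 34.5 and 34.2 FPKM in the PBS-titled columns, 32.9, 33.2 and 32.9 in Ep1, and 29.9, 34.7 and 33.8 in Ep2, and 77.2% of tested genes had a lower mean. The groups overlapped fully. The 95% interval of the log2 difference ran from -0.16 to 0.13 for Ep2 minus Ep1. It ran from -0.13 to 0.16 for PBS-titled minus Ep1 and from -0.12 to 0.17 for PBS-titled minus Ep2. Differences of YAP1 within these bounds are therefore not excluded. YAP1's lowest library was Ep2_1, and without it the Ep2 minus Ep1 difference was 0.05 in place of -0.01.

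WWTR1, the paralogue of YAP1 with the same TEAD-binding role, was at 27.2, 28.2 and 30.4 FPKM in the PBS-titled columns, 30.4, 32.4 and 33.8 in Ep1, and 32.1, 31.2 and 31.7 in Ep2. The PBS-titled columns lay below every Ep2 library, and column PBS3 met Ep1_1 at 30.4 FPKM. WWTR1 was called in no comparison: PBS-titled minus Ep2 was -0.14 (SE 0.06, limma adjusted p = 0.0762) and PBS-titled minus Ep1 was -0.17 (SE 0.06, adjusted p = 0.157). The first of these passed without column PBS3 (adjusted p = 0.0424) or without Ep1_1 (0.0481). The YAP1 to WWTR1 ratio averaged 1.17 in the PBS-titled group (1.12 to 1.22), 1.03 in Ep1 (0.972 to 1.08) and 1.04 in Ep2 (0.933 to 1.11), with every PBS-titled column above every other library. Together, YAP1 and WWTR1 summed to 62.0, 65.2 and 64.5 FPKM.

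The TEAD genes encode the DNA-binding partners of YAP1 and WWTR1. In all 3 comparisons TEAD1 had a difference of the opposite sign to TEAD2 and TEAD4, but TEAD1 was called only in PBS-titled minus Ep2. TEAD3, called in no comparison, had the opposite sign to them in Ep2 minus Ep1 alone. TEAD2 was at 30.1, 29.1 and 27.4 FPKM in the PBS-titled columns, 24.9, 23.7 and 23.0 in Ep1, and 21.2, 21.1 and 19.7 in Ep2. The 3 groups were wholly separate. TEAD2 was 1.38-fold higher in the PBS-titled group than in Ep2 (log2 difference 0.46, SE 0.06, limma adjusted p = 0.000476). It was lower in Ep2 than in Ep1 (log2 difference -0.20, SE 0.06, adjusted p = 0.035), a call that was lost without column PBS2 (0.0551), Ep1_1 (0.0907), Ep1_2 (0.0708), Ep2_2 (0.075) or Ep2_3 (0.129). The difference of 0.26 between the PBS-titled group and Ep1 (95% interval 0.13 to 0.40) had an adjusted p of 0.0766, and 0.0441 with limma's voom on the recovered fragments.

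TEAD4 had the same order of groups as TEAD2 with smaller differences. Its levels were 14.2, 14.1 and 13.5 FPKM in the PBS-titled columns, 13.5, 13.3 and 12.0 in Ep1, and 11.6, 11.2 and 11.01 in Ep2, with every Ep2 library below all others. TEAD4 was 1.22-fold higher in the PBS-titled group than in Ep2 (log2 difference 0.29, SE 0.07, adjusted p = 0.00478). Ep2 minus Ep1 was -0.18 (SE 0.07, adjusted p = 0.0571), and passed without Ep1_3 (0.0276), with a minimum of 5 FPKM (0.0495) and with voom (0.0366).

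TEAD1 ran the opposite way. It was at 12.1, 12.1 and 12.3 FPKM in the PBS-titled columns, 12.1, 13.3 and 14.3 in Ep1, and 14.0, 14.4 and 14.3 in Ep2, so that Ep1 spanned the interval between the others. PBS-titled minus Ep2 was -0.21 (SE 0.07, adjusted p = 0.0249), lost without column PBS1 (0.0646), column PBS2 (0.0728), Ep2_2 (0.0707) or Ep2_3 (0.0654). That call was also lost once the trend of each library on gene length was removed (-0.12, adjusted p = 0.0947); at 14448 bases TEAD1 is the longest of the 10 genes, against a median of 2818 bases over the tested genes. TEAD3 was the lowest of the 10, between 2.34 and 3.21 FPKM in all libraries, with means of 3.04 ± 0.224, 2.64 ± 0.312 and 2.76 ± 0.377 FPKM in the PBS-titled group, Ep1 and Ep2. It was called in no comparison, and with 79 to 115 fragments a library it had the widest intervals, for example -0.19 to 0.28 for Ep2 minus Ep1.

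The make-up of the summed TEAD level followed these differences. TEAD1 held 21.0% of the summed TEAD FPKM in the PBS-titled group (20.5 to 21.8%), 25.2% in Ep1 (22.7 to 27.8%) and 29.1% in Ep2 (28.2 to 30.1%), with no overlap between groups. The TEAD2 share averaged 49.7%, 45.3% and 42.2% in that order, while TEAD4 held 24.0%, 24.5% and 23.0% and TEAD3 5.25%, 5.0% and 5.63%. The TEAD2 to TEAD1 ratio averaged 2.37 (2.22 to 2.48) in the PBS-titled group, 1.81 (1.61 to 2.05) in Ep1 and 1.45 (1.38 to 1.51) in Ep2. The sum of the TEAD genes was 58.1 FPKM (56.5 to 59.2), 52.7 (51.7 to 53.5) and 48.9 (47.4 to 49.7), again without overlap. These ratios and sums are descriptions of the same libraries and were not tested separately. The trend of each library on gene length was not removed from them, and they set TEAD2, the shortest member, beside TEAD1, the longest.

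**Figure D2:**
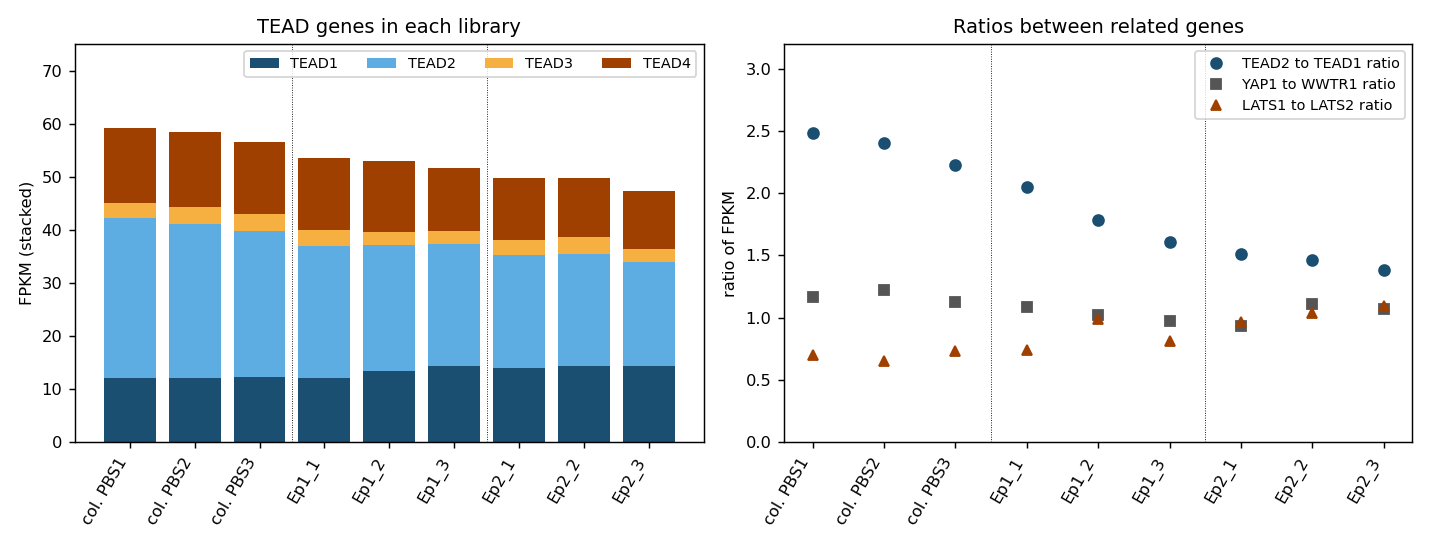
Left, FPKM of TEAD1 to TEAD4 stacked for each of the 9 libraries, by group; right, ratios of FPKM between related genes in each library. The TEAD sum steps from 56.5 or more in the PBS-titled columns to 49.7 or less in Ep2, and the TEAD2 to TEAD1 ratio drops from at least 2.22 to at most 1.51.

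Set by comparison, Ep2 against Ep1 was, by the treatment labels alone, exposure at 250 µg/mL against no treatment. Title and label conflict in the third group, and whether the labels of Ep1 and Ep2 hold was not tested. It called 2 of the 10 genes, STK3 higher and TEAD2 lower, against a background of 27.4% over all tested genes (13.4% in the higher direction, 14.0% in the lower). The libraries of the 2 groups did not overlap for 5 of the 10 genes (TEAD2, TEAD4, LATS1, STK3 and SAV1), against 42.8% of tested genes, and 4 of 10 had an unadjusted p under 0.05, against 41.3%. The median difference of the 10 genes was 0.02, beside -0.00 over all tested genes. Without Ep1_1 only STK3 was called among the 10, while calls over all tested genes fell from 3240 to 1839.

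The PBS-titled group against Ep1 called 0 of the 10 genes with limma, against a background of 0.144% (0.076% higher and 0.0676% lower), and voom called TEAD2. At an unadjusted p under 0.05, WWTR1, TEAD2, LATS1 and STK3 passed, 4 of 10 against 22.4% of tested genes, and the groups did not overlap for 3 of 10 against 23.7%. Without Ep1_1, those 4 genes were called by limma, while calls over all tested genes rose from 17 to 1887. TEAD2 was higher in the PBS-titled group (0.29, adjusted p = 0.0166), and LATS1 (-0.30, 0.0159), STK3 (-0.29, 0.0204) and WWTR1 (-0.21, 0.0463) were lower. The median over the 10 genes was -0.05, beside 0.00.

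The PBS-titled group against Ep2 called 6 of the 10 genes. TEAD2 and TEAD4 were higher in the PBS-titled group, and TEAD1, LATS1, STK3 and SAV1 were lower. The background over all tested genes was 49.6%, with 25.4% in the higher direction and 24.2% in the lower. The groups did not overlap for 8 of 10 genes, with LATS2 and WWTR1 uncalled among them, against 60.3% of tested genes, and 7 of 10 had an unadjusted p under 0.05, against 56.7%. The median absolute difference was 0.25 for the 10 genes and 0.24 over all tested genes, so that they differed about as much as other genes did. The 3 comparisons share libraries, and their results are not independent of each other.

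**Figure D3:**
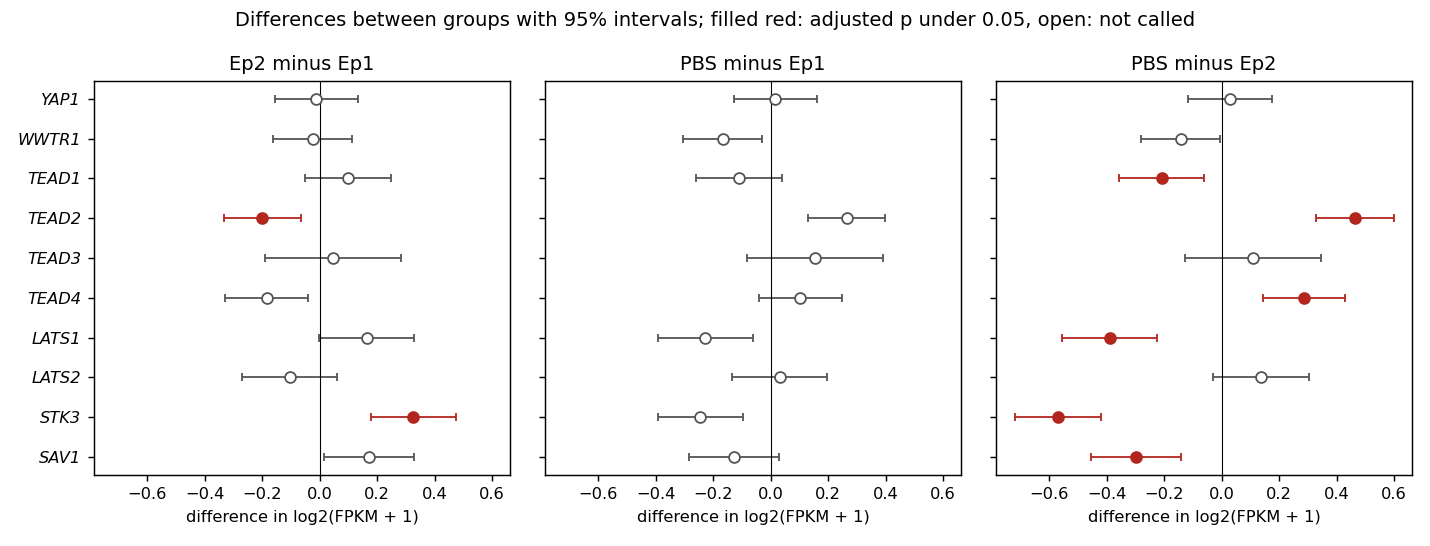
Difference in log2(FPKM + 1) of each Hippo pathway gene in the 3 comparisons, with 95% intervals from the limma fit; filled red points passed an adjusted p under 0.05, open points did not. STK3 and TEAD2 pass in Ep2 minus Ep1, none passes in PBS-titled minus Ep1, and 6 genes pass in PBS-titled minus Ep2, from -0.57 for STK3 to 0.46 for TEAD2.

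The order of the members by level differed between groups. In the PBS-titled group YAP1 was highest, followed by TEAD2 and WWTR1, whose ranges overlapped, and then STK3. In Ep1, YAP1, WWTR1 and STK3 led with ranges that overlapped from each to the next, and TEAD2 came next. In Ep2, STK3 stood above YAP1 without overlap, YAP1 and WWTR1 overlapped, and TEAD2 and SAV1 followed. TEAD3 was lowest in every group. The Ep1 mean lay between the other group means for 8 of the 10 genes, all but WWTR1 and TEAD3, as it did for 60.8% of tested genes.

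Other genes of the cascade differed in both directions. Of 23 listed core genes besides the 10, 20 were tested, and 7 were higher and 6 lower in the PBS-titled group than in Ep2, with a median of -0.03, where 25.4% of all tested genes were higher and 24.2% lower. MAP4K2, a kinase that can activate LATS, averaged 16.7 ± 1.06 FPKM in the PBS-titled group, 14.4 ± 1.83 in Ep1 and 11.1 ± 1.2 in Ep2, and was higher in the PBS-titled group than in Ep2 by 0.56 (SE 0.10, limma adjusted p = 0.00148). Its relatives MAP4K5 (-0.45, SE 0.08) and MAP4K3 (-0.44, SE 0.08) were lower. The kinases TAOK1 and TAOK2, which act on STK3 and STK4, differed in opposite directions, TAOK1 lower (log2 difference -0.46, SE 0.10) and TAOK2 higher by 0.42 (SE 0.09). NF2 (merlin), a membrane scaffold that recruits LATS, stood at 26.5, 26.5 and 28.1 FPKM in the PBS-titled columns, 25.2, 23.0 and 22.8 in Ep1 and 20.6, 19.8 and 20.8 in Ep2, with no overlap. NF2 was higher by 0.39 in the PBS-titled group than in Ep2 (SE 0.06, adjusted p = 0.000816).

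In Ep2 against Ep1, 2 of those 20 core genes were higher and 6 lower, with a median of -0.04, beside 13.4% higher and 14.0% lower over all tested genes. MAP4K3 was among the higher (0.26, SE 0.08). The lower ones included MAP4K2 (-0.35, SE 0.10), MINK1 (-0.31, SE 0.06), PTPN14 (-0.25, SE 0.07), WWC2 (-0.22, SE 0.07) and NF2 (-0.20, SE 0.06). MINK1, a kinase of the MAP4K family, was at 37.4 ± 1.66 FPKM in Ep1 and 30.0 ± 1.05 in Ep2 (adjusted p = 0.00647), and was called with any 1 library left out. The number of the 20 called was 8, and dropped to 3 without Ep1_1 or Ep1_2 and to 1 without Ep2_2 or Ep2_3. PBS-titled against Ep1 called 0 of 20 (6 at an unadjusted p under 0.05, 2 by voom, and 4 without Ep1_1), with a median of -0.07. The abundant MAP4K4 (-0.09, SE 0.05) and the LATS coactivator MOB1A (-0.10, SE 0.05) were not called there.

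Genes upstream of the core, from cell polarity and junctions and from the STRIPAK phosphatase complex that opposes STK3 and STK4, were also split. Of 27 listed symbols, 20 were tested, and MPP5 was also listed under an alias. In the PBS-titled group, 6 were higher and 7 lower than in Ep2. In Ep2, 4 were higher and 5 lower than in Ep1, with medians of -0.01 in both comparisons. The background called was 49.6% in the first comparison and 27.4% in the second. PDCD10, a STRIPAK subunit, was at 30.4, 30.8 and 31.6 FPKM in the PBS-titled columns, 32.0, 39.2 and 42.5 in Ep1 and 44.5, 49.9 and 49.3 in Ep2. The groups did not overlap, and Ep1_1 lay beside the PBS-titled columns. PDCD10 differed by -0.61 between the PBS-titled group and Ep2 (SE 0.09, limma adjusted p = 0.000706) and by 0.34 between Ep2 and Ep1 (SE 0.09, adjusted p = 0.022), the latter lost without Ep2_2 or Ep2_3. STRN, a STRIPAK scaffold, was higher in Ep2 than in Ep1 by 0.33 (SE 0.09), lost without Ep1_1, Ep2_2 or Ep2_3, and than in the PBS-titled group (-0.37, SE 0.09). FGFR1OP2 also was lower in the PBS-titled group than in Ep2 (-0.38, SE 0.09).

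The polarity protein SCRIB, the YAP1-binding AMOTL1 and the LATS inhibitor AJUBA were lower in Ep2 than in Ep1. SCRIB averaged 22.9 ± 1.07, 22.1 ± 1.75 and 16.8 ± 0.931 FPKM in the PBS-titled group, Ep1 and Ep2, an Ep2 minus Ep1 difference of -0.37 (SE 0.07, limma adjusted p = 0.00712). AMOTL1 averaged 7.64 ± 0.297, 7.10 ± 0.337 and 5.41 ± 0.350 FPKM (-0.34, SE 0.07, adjusted p = 0.0099). AJUBA averaged 85.0 ± 0.659, 87.4 ± 7.74 and 70.4 ± 1.71 FPKM (-0.31, SE 0.06, adjusted p = 0.00869). All 3 calls were kept with any 1 library left out. SCRIB and AMOTL1 were higher in the PBS-titled group than in Ep2 as well, by 0.42 and 0.43 (SE 0.07 each), as was the STRIPAK-associated kinase STK25 (0.37, SE 0.09). AJUBA was outside the genes named for that comparison, but its PBS-titled columns (84.3 to 85.6 FPKM) lay above its Ep2 libraries (69.4 to 72.3). The 9 calls in Ep2 against Ep1 became 5 without Ep1_1 and 3 without Ep2_2 or Ep2_3. The PBS-titled group against Ep1 called 0 of these 20 genes with limma (2 at an unadjusted p under 0.05, 0 by voom, and 2 without Ep1_1), with a median of -0.04, and AJUBA differed by -0.04 (SE 0.06) and STK25 by 0.16 (SE 0.09).

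**Figure D4:**
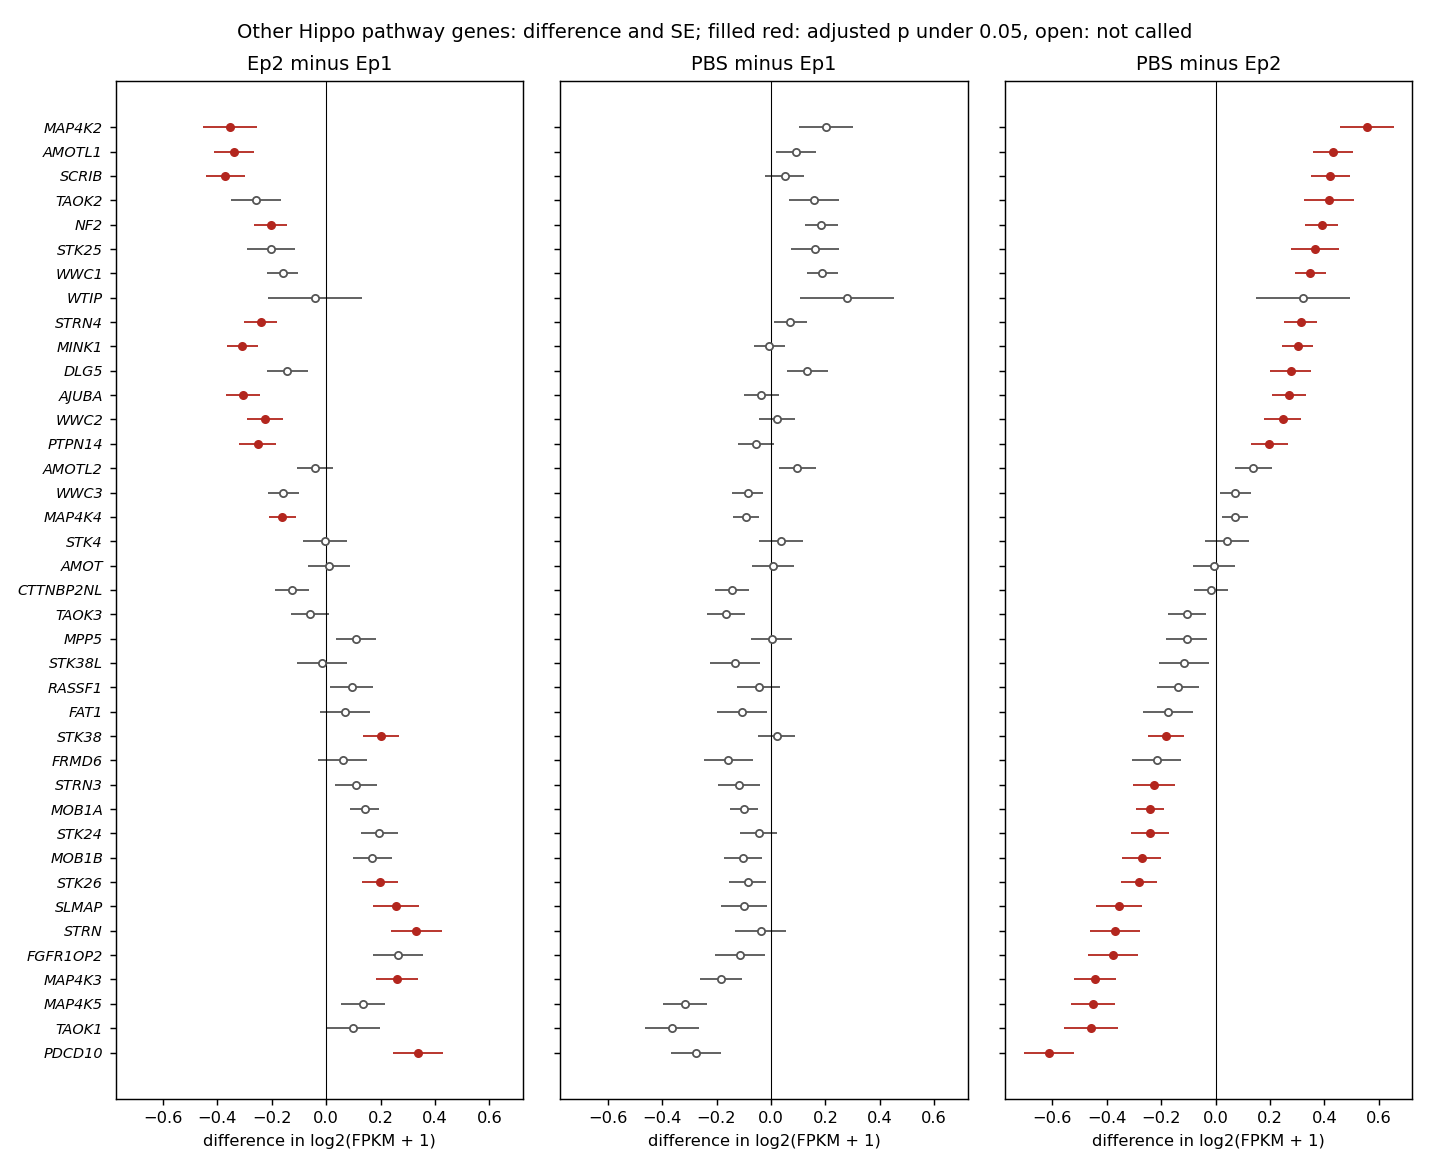
Difference in log2(FPKM + 1) in the 3 comparisons for the other core and upstream Hippo genes, with bars of 1 SE from the limma fit; filled points passed an adjusted p under 0.05. Both directions occur, from -0.61 for PDCD10 to 0.56 for MAP4K2 in PBS-titled minus Ep2.

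Among 24 listed cofactors and turnover genes of YAP1, WWTR1 and the TEADs, 19 were tested and VGLL1 was listed at 0 in every library. In the PBS-titled group against Ep2, 5 were higher and 8 lower (median -0.01), and in Ep2 against Ep1, 4 were higher and 4 lower (median 0.08), against the same backgrounds of 49.6% and 27.4%. PPP1CA, a phosphatase subunit known to dephosphorylate WWTR1 and YAP1, averaged 136 ± 2.86, 119 ± 10.1 and 94.7 ± 6.01 FPKM in the PBS-titled group, Ep1 and Ep2. PPP1CA was higher in the PBS-titled group than in Ep2 by 0.51 (SE 0.07, limma adjusted p = 0.000481) and lower in Ep2 than in Ep1 (log2 difference -0.32, SE 0.07, adjusted p = 0.00978), and the second call was kept with any 1 library left out. PPP2R1A (0.40, SE 0.06), the kinase SRC (0.36, SE 0.07) and YWHAB (0.40, SE 0.07) were higher in the PBS-titled group than in Ep2. VGLL3, a TEAD-binding cofactor, was lower there (-0.40, SE 0.10), as was RUNX2 (-0.43, SE 0.12), which stood near the filter at 0.908 to 1.87 FPKM. The YWHA genes encode proteins that hold phosphorylated YAP1 in the cytoplasm, and they did not share a direction: in Ep2 minus Ep1, YWHAQ (0.26, SE 0.05) and YWHAE (0.23, SE 0.05) were higher, while YWHAB averaged 208 ± 20.8 FPKM in Ep1 and 178 ± 3.83 in Ep2.

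SRC (-0.28, SE 0.07), PPP2R1A (-0.24, SE 0.06) and YES1 (0.22, SE 0.08) were the other cofactor genes named in Ep2 minus Ep1. The 8 calls in that comparison became 5 without column PBS1 or PBS2 and 3 without Ep1_1, Ep2_2 or Ep2_3. SRC was lost without Ep1_1 or Ep2_2, PPP2R1A without Ep1_1, Ep2_2 or Ep2_3, YWHAE without Ep2_3, and YES1, the kinase after which YAP1 (YES-associated protein) was named, without column PBS1, column PBS2, Ep1_1, Ep1_3, Ep2_2 or Ep2_3. In the PBS-titled group against Ep1, 0 of the 19 were called by limma or voom, 5 had an unadjusted p under 0.05 and 3 were called without Ep1_1, with a median of 0.04. YWHAZ (-0.05, SE 0.05) and YWHAE (-0.11, SE 0.05), the most abundant, were not called.

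Of 24 listed symbols of YAP target genes, 18 were tested, LATS2 among them. The 24 include an alias each of CYR61 and CTGF, which has no row of its own. In Ep2, 6 of the 18 were lower and 0 higher than in Ep1. Their median difference was -0.08, beside -0.00 over all tested genes, of which 14.0% were lower. CYR61, the best known target, was at 298, 325 and 339 FPKM in the PBS-titled columns, 412, 347 and 389 in Ep1 and 336, 265 and 275 in Ep2. Every Ep1 library lay above every other library. CYR61 was lower in Ep2 than in Ep1 (log2 difference -0.39, SE 0.10, limma adjusted p = 0.0148), while PBS-titled minus Ep1 was -0.25 (SE 0.10, adjusted p = 0.159) and PBS-titled minus Ep2 was 0.14 (adjusted p = 0.24). ARHGEF17 was at 11.1 ± 0.197 FPKM in Ep1 and 8.38 ± 0.368 in Ep2 (-0.37, SE 0.07, adjusted p = 0.0066), and its call was kept with any 1 library left out. The stress kinase NUAK2 (-0.43, SE 0.13), the stress-induced GADD45A (-0.35, SE 0.10), CCDC80 (-0.29, SE 0.07) and PTPN14 (-0.25, SE 0.07) were the others. PTPN14 is also on the list of core genes, so its call is counted in each list. AMOTL2 is likewise on the upstream list and the target list. CTGF, the other classic target, was low at 1.46 to 2.73 FPKM and was called in no comparison, and ANKRD1 stayed under the filter.

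The target calls in Ep2 against Ep1 rested in part on single libraries: 6 became 2 without Ep2_2 and 1 without Ep2_3. CYR61 was lost without Ep1_1, Ep2_2 or Ep2_3, NUAK2 without Ep1_2, Ep1_3, Ep2_2 or Ep2_3, GADD45A without Ep1_1, Ep1_3, Ep2_2 or Ep2_3, PTPN14 without Ep1_2, Ep2_2 or Ep2_3, and CCDC80 without Ep2_3. In the PBS-titled group against Ep2, 3 of the 18 targets were higher and 1 lower, with a median of 0.12, where 25.4% of all tested genes were higher and 24.2% lower. These were ARHGEF17 (0.42, SE 0.07, limma adjusted p = 0.001), FJX1 (0.29, SE 0.09), PTPN14 (0.20, SE 0.07) and, lower, MYOF (-0.18, SE 0.06). The number called there was 2 without column PBS1, 1 without column PBS2, 7 without Ep2_1, 1 without Ep2_2 and 2 without Ep2_3. The PBS-titled group against Ep1 called 0 of 18 with limma (6 at an unadjusted p under 0.05, 1 by voom, and 2 without Ep1_1), with a median of -0.06 and GADD45A at -0.13 (SE 0.10).

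**Figure D5:**
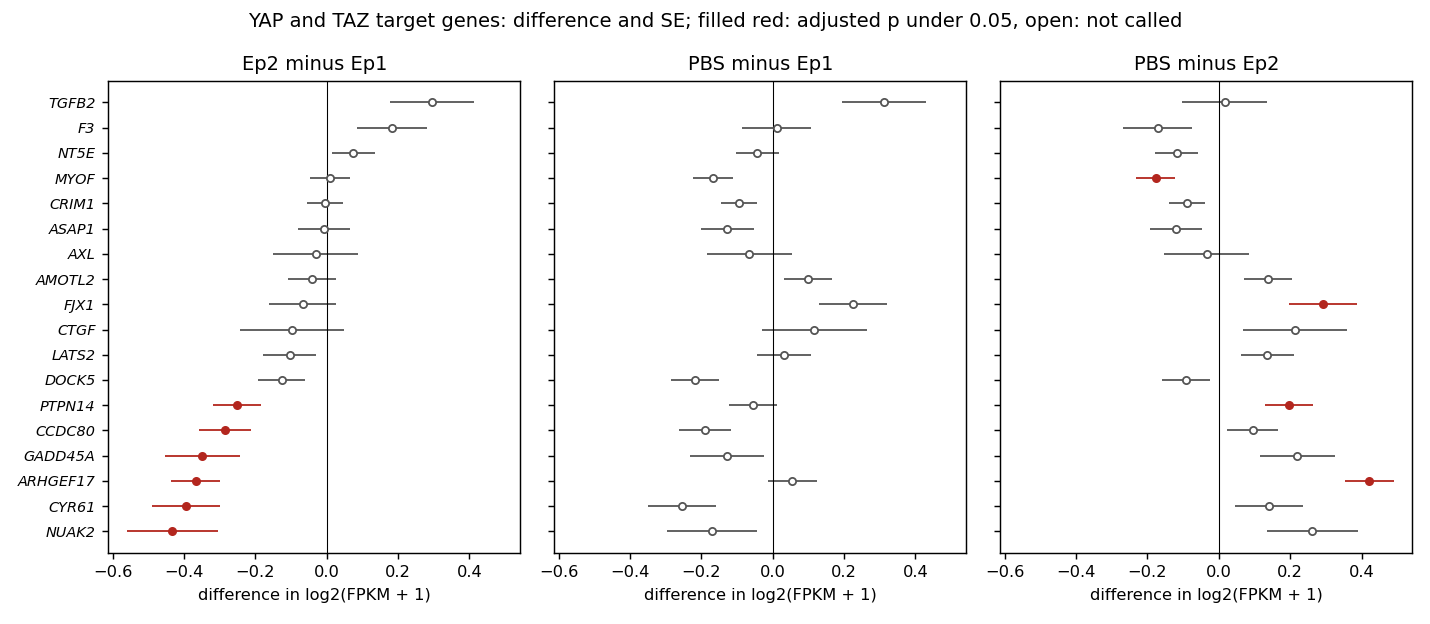
Difference in log2(FPKM + 1) of the tested YAP target genes in the 3 comparisons, with bars of 1 SE from the limma fit; filled points passed an adjusted p under 0.05. In Ep2 minus Ep1 the 6 called genes all lie below 0, from -0.43 for NUAK2 to -0.25 for PTPN14.

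Across the 9 libraries, YAP1, WWTR1 and STK3 were compared with 7700 genes with a mean of at least 5 FPKM for the likeness of their patterns. For YAP1 the most alike genes by Pearson's r of log2(FPKM + 1) were AAR2 (0.892), ENTPD4 (0.799) and ZNF7 (0.798), and 0 genes passed 0.9. For WWTR1 they were EIF4G3 (0.981), IBTK (0.976) and TOB1 (0.976), with 102 genes above 0.9. For STK3, the member with the smallest F-test p, they were TAX1BP1 (0.986), MIER3 (0.986) and DARS (0.985), with 800 genes above 0.9. These values describe 9 libraries that share their groups, and carry no test.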

How the data were processed

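RNA-seq of 9 libraries was analysed from the FPKM table that the authors deposited, with 1 column per library. The submitters' processing notes name Bowtie 0.12.2 and the genome build mm8, a mouse build, while the table's rows name ferret genes on ferret scaffolds. For the counting tool, the annotation and the strand setting the sources used here give nothing, so no coordinates are printed, and paralogues or overlapping genes may share fragments. Symbols were matched to RefSeq names for 22335 of 28494 rows and for 10 of 10 members. Listed symbols with no row under that name were not analysed here. The Ep1 and Ep2 columns match single samples by title. The columns PBS1, PBS2 and PBS3 match the PBS-titled group as a whole. In all, 0 columns of samples were left unused.

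FPKM steps gave whole fragments (within 0.02) for 100% of values, from which the depth was read; counting error is the least error of any value. No libraries agreed within sampling noise. Values were tested as log2(FPKM + 1) with limma 3.58.1 in R 4.3.3 (1 mean per group, all 9 libraries, intensity trend), for genes of at least 1 FPKM in at least 3 libraries. Benjamini-Hochberg adjustment ran over all 11840 tested genes, with a threshold of 0.05. A fold is on the FPKM + 1 scale and understates the change of low genes. The fit was tested on simulated data. From each gene list, the text names up to 6 genes that passed, by size of difference, or the 2 most abundant where none passed. Alternatives covered the pseudocount, filter, scaling, intensity trend, gene length, voom on recovered fragments, the libraries fitted and a replicate block. The members and lists were chosen with earlier results of these data known. A gene of the upstream list is counted in its list and is not reported here by name or drawn.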

Additional observations from a re-analysis of the deposited data

How the results depend on the processing

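In PBS-titled minus Ep2, STK3, TEAD2, TEAD4, LATS1 and SAV1 kept their call in all 20 alternatives, and the number of members called was between 5 and 7. In Ep2 minus Ep1 the number was 2 and became 1 with only the 6 libraries compared, without Ep1_1 and Ep2_1 together and with a replicate block, and ran from 1 to 3 with single libraries left out. In PBS-titled minus Ep1 it was 0 and became 1 by voom and 4 without Ep1_1 and Ep2_1 together, and ran from 0 to 4 with single libraries left out. The cause was not tested. The replicate block (TEAD2 adjusted p = 0.0543) rests on shared numbers only: deviations of Ep1 and Ep2 libraries with the same number correlated at 0.152, 0.072 and 0.0647, and Ep2_3 correlated best with Ep1_2 (0.0733). The PBS-titled columns carry no title number, so they had no block.

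Values near 0 changed sign. In Ep2 minus Ep1, with single libraries left out, YAP1 ranged from -0.0515 to 0.0525 (0.0505 without Ep1_1 and Ep2_1 together), WWTR1 from -0.0636 to 0.0110 and TEAD3 from -0.0152 to 0.128. COL1A2 became 0.0193 there without Ep1_1 and Ep2_1. In PBS-titled minus Ep1, YAP1 ranged from -0.00506 to 0.0545 (-0.00203 by quantile normalization), LATS2 from -0.0286 to 0.0831 (-0.00905 without column PBS2) and AJUBA from -0.0743 to 0.0360, also 0.0360 without Ep1_1 and Ep2_1. In PBS-titled minus Ep2, YAP1 ranged from -0.0358 to 0.0682 (-0.0358 without Ep1_1 and Ep2_1) and TYROBP from -0.14 to 0.147 (-0.0852 without column PBS3, -0.14 without Ep1_1 and Ep2_1, -0.00985 by quantile normalization, -0.13 with the length trend removed).

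In Ep2 minus Ep1, calls among the other core genes (8) became 4 with no filter on low values and 3 with only the 6 libraries compared, without Ep1_1 and Ep2_1 together or with the replicate block. Upstream genes (9) became 4 with no filter and 5 with only 6 libraries, and cofactors (8) 5 with no filter, no intensity trend or without Ep1_1 and Ep2_1, and 4 with only 6 libraries. Without Ep1_1 and Ep2_1, PBS-titled minus Ep1 called 5, 2, 5 and 2 core, upstream, cofactor and target genes (0 each with all libraries, where voom called 2 core genes and 1 target), and targets in PBS-titled minus Ep2 went from 4 to 7.

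Over all tested genes, calls were 3240 in Ep2 minus Ep1 and ranged from 1258 to 3672. They were 17 in PBS-titled minus Ep1, ranging from 0 to 2294, and 5875 in PBS-titled minus Ep2, ranging from 4498 to 6237. Scalings left the median of all genes within 0.03 of 0.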
